A study of Mus musculus with 4 samples.

Results

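Calprotectin and the proteins of the secondary granules are products of maturing neutrophils, and their genes were followed here in transduced mouse bone marrow cells. The set held 10 genes, read by 13 probe sets, of 18193 genes and 45101 probe sets on the array. Members were taken by name, as every probe set whose only gene symbol in the platform's annotation was S100a8, S100a9, Ngp, Ltf, Lcn2, Camp, Mmp8, Mmp9, Chil3 or Cybb. The probe sets were thus picked by symbol alone, but the list of genes was chosen with earlier results of these data known. All 10 were found, 8 of them with 1 probe set, Mmp9 with 2 and Cybb with 3. A further probe set that carries the symbols of both Chil4 and Chil3 was left out and lay below 48.3 on every array.

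The samples began as mouse bone marrow cells that carried Sca-1 and c-kit and lacked lineage markers (LSK cells), the fraction that includes blood stem cells. The β-catenin day 3 sample carried a β-catenin retrovirus and was taken 3 days after transduction, and the DKmix day 50 and DKmix day 300 samples were β-catenin-transduced LSK cells cultured for 50 and 300 days. The eGFP day 3 sample carried a retrovirus for enhanced green fluorescent protein, a marker with no role in signalling, and was taken at the same 3 days. All were grown with serum and IL-3, SCF, Flt3 and IL-11. The labels give no strain, age, vector promoter or clonality, and they do not say whether the 3 β-catenin samples came from 1 transduction.

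Neutrophils build their granules in order as they mature. Primary granules with myeloperoxidase and serine proteases form at the promyelocyte stage, and secondary granules with lactoferrin, lipocalin 2 and cathelicidin form at the myelocyte stage, under C/EBP family factors. Calprotectin, the complex of S100a8 and S100a9, accumulates in the cytosol of neutrophils and also of monocytes, where it binds calcium and withholds zinc and manganese from microbes. Genes of this kind are therefore used as signs of granulocyte maturation in cultures of bone marrow progenitors.

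Each sample was read on 1 array, so no difference given here has a replicate check, a standard error or a p-value, and the number of arrays limits the precision. Values are the deposited linear signal intensities, which had the same trimmed mean (150.001) on the 4 arrays. Before any ratio, intensities below 48.3, the pooled median, were raised to that floor. Where that happened on 1 array of a pair the ratio is a bound, written "at least", and where it happened on both, the gene counts as not measured. A difference counts as called past 2-fold, and the only error measure is the spread of log2 ratios between probe sets of the same gene, an SD of 0.64 for the day 3 pair, and of 0.81 at day 50 and 0.64 at day 300 for DKmix cells set against β-catenin day 3. Of the markers behind the sort, Kit gave 82.9 on β-catenin day 3 against 55.8 on eGFP day 3, little above the floor, while DKmix day 50 and day 300 gave 3459.5 and 1262.7. Ratios of 3′ to 5′ signal for Gapdh, a sign of RNA and labelling quality, were 1.18 on the β-catenin array, 4.96 in DKmix cells of day 50 and 1.06 in those of day 300, against 4.14 on the eGFP array. For Actb the ratios were 1.32, 3.41 and 1.20 on β-catenin day 3, DKmix day 50 and DKmix day 300, against 1.83 on eGFP day 3. By Actb the eGFP array thus lay nearer to the lower arrays than to DKmix day 50. The Gapdh difference accompanies every comparison below that sets one of the higher arrays against one of the lower, and its part in the results was not tested.

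Promoters of 5 members are printed here because 4 of them, S100a8, S100a9, Ngp and Ltf, had the 4 lowest day 3 ratios of the set as computed and the other, Lcn2, was level on the same pair of arrays. They are RefSeq sequences of build GRCm38.p6, 250 bases before to 50 after the annotated start, and promoters of 9 of the 10 members were in the table. Capitals mark matches on either strand to TTGCNNAA, a sequence bound by C/EBP factors, to GAGGAAG, bound by PU.1, and to TATAAA, the letters of a TATA box, and no matches overlap.
S100a8, chr3:90668821-90669120, plus strand: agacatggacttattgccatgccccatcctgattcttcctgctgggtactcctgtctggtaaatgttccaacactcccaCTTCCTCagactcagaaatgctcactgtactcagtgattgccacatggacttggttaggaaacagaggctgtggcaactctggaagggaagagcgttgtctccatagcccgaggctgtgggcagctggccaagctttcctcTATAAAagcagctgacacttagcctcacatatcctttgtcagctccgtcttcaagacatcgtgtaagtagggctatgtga
S100a9, chr3:90695672-90695971, minus strand: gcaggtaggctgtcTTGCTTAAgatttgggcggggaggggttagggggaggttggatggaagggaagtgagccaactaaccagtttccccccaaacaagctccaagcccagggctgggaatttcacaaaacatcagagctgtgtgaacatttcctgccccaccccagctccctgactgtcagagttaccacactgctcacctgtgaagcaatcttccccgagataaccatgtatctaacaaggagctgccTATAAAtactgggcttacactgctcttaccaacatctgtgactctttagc
Ngp, chr9:110419558-110419857, plus strand: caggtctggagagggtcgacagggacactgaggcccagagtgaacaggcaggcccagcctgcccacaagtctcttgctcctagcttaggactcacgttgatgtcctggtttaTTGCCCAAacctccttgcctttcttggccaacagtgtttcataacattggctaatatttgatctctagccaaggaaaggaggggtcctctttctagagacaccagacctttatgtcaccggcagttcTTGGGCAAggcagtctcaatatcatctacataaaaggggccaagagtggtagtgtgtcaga
Ltf, chr9:111019042-111019341, plus strand: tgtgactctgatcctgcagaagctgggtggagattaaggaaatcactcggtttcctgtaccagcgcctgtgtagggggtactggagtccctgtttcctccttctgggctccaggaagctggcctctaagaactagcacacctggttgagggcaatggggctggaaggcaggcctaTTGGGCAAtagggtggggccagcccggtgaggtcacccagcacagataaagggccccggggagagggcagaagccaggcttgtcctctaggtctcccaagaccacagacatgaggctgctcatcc
Lcn2, chr2:32387690-32387989, minus strand: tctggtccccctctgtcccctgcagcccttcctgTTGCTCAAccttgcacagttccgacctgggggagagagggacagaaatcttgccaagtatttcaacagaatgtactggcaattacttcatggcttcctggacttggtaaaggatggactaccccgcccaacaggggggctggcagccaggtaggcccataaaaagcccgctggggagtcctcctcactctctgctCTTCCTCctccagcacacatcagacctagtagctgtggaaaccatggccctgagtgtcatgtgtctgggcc

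The C/EBP letters occur in 5 of the 9 member promoters (S100a9, Ngp, Ltf, Lcn2 and Mmp8), against 10.8% of the 32851 promoters in the table. Ngp holds them at positions -138 and -11 from the annotated start, and the match at -11 reads TTGGGCAA, the same letters as the match of Ltf at -75. S100a9 holds them at -236 and Lcn2 at -216. The PU.1 letters occur in 3 member promoters (S100a8, Lcn2 and Mmp8) and in 13.6% of all promoters. The TATA letters occur in 4 (S100a8, S100a9, Mmp8 and Chil3) and likewise in 13.6% of all. They begin at -30 in S100a8, at 1 in S100a9 and at -3 in Chil3 and, on the opposite strand, in Mmp8. The C/EBP letters stand in Lcn2, level at day 3, in Mmp8, 2.68-fold lower, and in S100a9, Ngp and Ltf, which were far lower. They are absent from S100a8 and Camp, also far lower, and from Chil3 and Cybb. A link between the matches and the ratios was not tested. A match describes the letters in this window and is no sign of binding.

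The calprotectin pair was bright in eGFP cells and lower in every β-catenin sample. S100a8 gave 328.0 on the β-catenin array, 27.7 in DKmix cells of day 50 and 13.3 in those of day 300, against 13231.2 on the eGFP array. S100a9, which lies next to S100a8 on chromosome 3, gave 290.0, 13.5 and 25.3 on the β-catenin day 3, DKmix day 50 and DKmix day 300 arrays, against 28111.9 on eGFP day 3. The order was the same for both, eGFP day 3 highest, then β-catenin day 3, and both DKmix arrays below the floor, where values have no order.

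With β-catenin at day 3, S100a8 was 40.3-fold lower than with eGFP and S100a9 96.9-fold lower, log2 ratios of -5.33 and -6.60. Among the 9121 genes above the floor on both arrays, these were the third and the second lowest ratios. DKmix cells were lower again by at least 6.79-fold for S100a8 and at least 6.00-fold for S100a9 relative to β-catenin day 3, the same bound at both culture times because the floor sets it. Against eGFP day 3 the DKmix arrays were lower by at least 274-fold for S100a8 and at least 582-fold for S100a9. The S100a8 probe set is of a type whose probes can also match other transcripts, and it followed the S100a9 one.

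**Figure D1:**
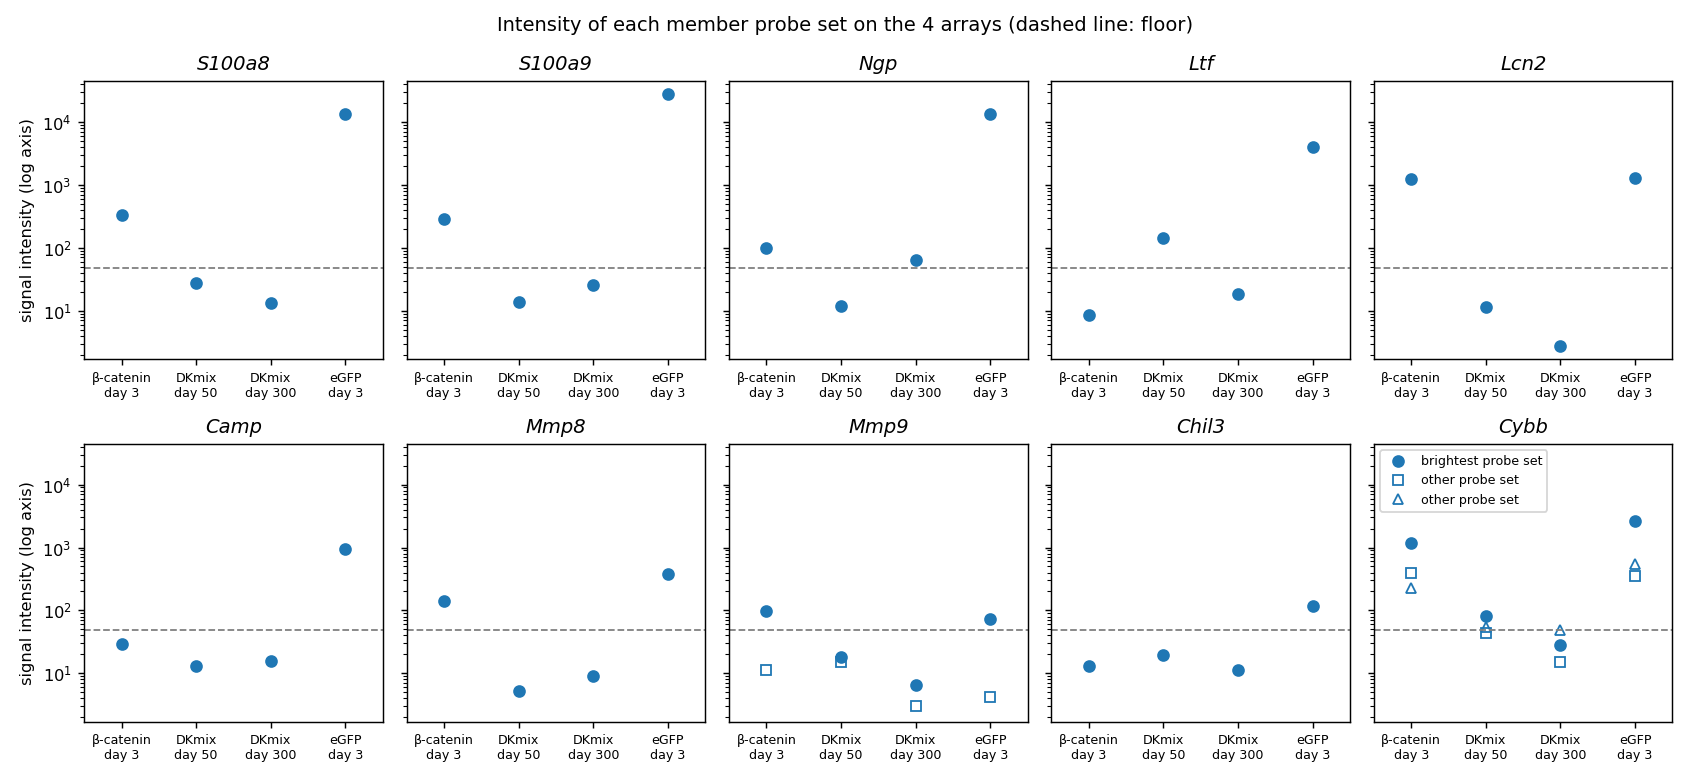
Signal intensity (log axis) of the 13 probe sets of the 10 members on the β-catenin day 3, DKmix day 50, DKmix day 300 and eGFP day 3 arrays, 1 panel per gene, with the floor of 48.3 as a dashed line. Each point is 1 probe set on 1 array, filled for the brightest probe set of a gene. S100a8, S100a9, Ngp, Ltf and Camp stand at least 19.5-fold higher on the eGFP array than on any other, while Lcn2 and Mmp9 stand at like heights on both day 3 arrays.

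Ngp, a mouse secondary granule protein related to cathelicidins, had the lowest day 3 ratio of all genes measured on both arrays. Its intensity was 99.5 on the β-catenin array, 11.8 in DKmix cells of day 50 and 63.5 in those of day 300, against 13424.2 on the eGFP array. That is 135-fold lower with β-catenin at day 3 (log2 ratio -7.08). Ngp was above the floor at DKmix day 300, 1.57-fold below β-catenin day 3 and 211-fold below eGFP day 3. The latter was the lowest ratio of the 8770 genes above the floor on both of those arrays. Genes below the floor at day 300 are outside that ranking. Among them, S100a8 and S100a9 were at least 274-fold and at least 582-fold below eGFP day 3, farther than Ngp. Ngp was the only member above the floor on the day 300 array by its brightest probe set.

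Ltf, which encodes the iron-binding protein lactoferrin, took another course within the β-catenin samples. It gave 8.4 on the β-catenin array, 141.3 in DKmix cells of day 50 and 18.2 in those of day 300, against 4017.4 on the eGFP array. On β-catenin day 3 it was at least 83.2-fold lower than on eGFP day 3. At DKmix day 50 it was above the floor, at least 2.93-fold higher than on β-catenin day 3 and still 28.4-fold lower than on eGFP day 3. With the floor at 134.6 in place of 48.3 this day 50 difference was not past 2-fold (log2 ratio 0.070), and no other member was higher on a DKmix array than on β-catenin day 3 past 2-fold.

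Camp encodes the mouse cathelicidin, an antimicrobial peptide precursor stored in secondary granules. Camp was above the floor on 1 array, with 28.9 on the β-catenin array, 13.1 in DKmix cells of day 50 and 15.6 in those of day 300, against 943.4 on the eGFP array. It was at least 19.5-fold lower on each of the β-catenin samples than on eGFP day 3. Chil3, which encodes the chitinase-like protein Ym1 of mouse neutrophils and macrophages, gave 13.1, 19.5 and 11.4 on β-catenin day 3, DKmix day 50 and DKmix day 300, against 115.6 on eGFP day 3. Chil3 was thus at least 2.39-fold lower in each β-catenin sample, and was dim even on the eGFP array. For both genes the DKmix samples could not be set against β-catenin day 3.

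Lcn2 was level between the day 3 arrays and lower in culture. Lcn2 encodes lipocalin 2, which binds bacterial siderophores and is also made outside neutrophils under inflammatory signals. It gave 1237.1 on the β-catenin array, 11.3 in DKmix cells of day 50 and 2.7 in those of day 300, against 1293.9 on the eGFP array. The day 3 difference was small (log2 ratio -0.065, well within the spread between probe sets), and both DKmix arrays were at least 25.6-fold lower than β-catenin day 3. Hp, the haptoglobin gene, had the same shape, with 814.2 on the β-catenin array, 4.9 in DKmix cells of day 50 and 5.1 in those of day 300, against 865.9 on the eGFP array. Lcn2 and Hp are both secreted proteins of secondary granules and of the acute phase response.

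Both metalloproteinases were above the floor at day 3 and below it in culture. Mmp8, the neutrophil collagenase of secondary granules, gave 143.3 on the β-catenin array, 5.3 in DKmix cells of day 50 and 9.2 in those of day 300, against 384.2 on the eGFP array. It was 2.68-fold lower with β-catenin at day 3 (log2 ratio -1.42) and at least 2.97-fold lower on either DKmix array than on β-catenin day 3. Mmp9, the gelatinase of tertiary granules, gave 98.2, 17.9 and 6.5 on β-catenin day 3, DKmix day 50 and DKmix day 300, against 73.1 on eGFP day 3, by its brighter probe set. The day 3 difference was within 2-fold (log2 ratio 0.43) and within the probe set spread. The other Mmp9 probe set was below the floor on all 4 arrays (3.0 to 15.4) and gave no ratio, so the bound of at least 2.03-fold lower in DKmix cells rests on 1 probe set.

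Cybb encodes gp91phox, the catalytic subunit of the NADPH oxidase, which lies in the secondary granule membrane of neutrophils and is also made by macrophages and B cells. Its brightest probe set gave 1162.5 on the β-catenin array, 80.5 in DKmix cells of day 50 and 27.7 in those of day 300, against 2637.9 on the eGFP array. A further probe set gave 229.6, 54.8 and 48.1 on those arrays, against 541.5 on eGFP day 3, and the last gave 388.3, 43.9 and 15.0, against 352.6 on eGFP day 3. The 3 probe sets disagreed on the day 3 pair. The first and second were 2.27-fold and 2.36-fold lower with β-catenin, and the last was 1.10-fold higher. All 3 had lower values in DKmix cells, by 14.4-fold, 4.19-fold and at least 8.04-fold at day 50 relative to β-catenin day 3. At day 300 all 3 were below the floor and lower than on β-catenin day 3, with bounds of 24.1-fold, 4.75-fold and 8.04-fold in the same order.

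**Figure D2:**
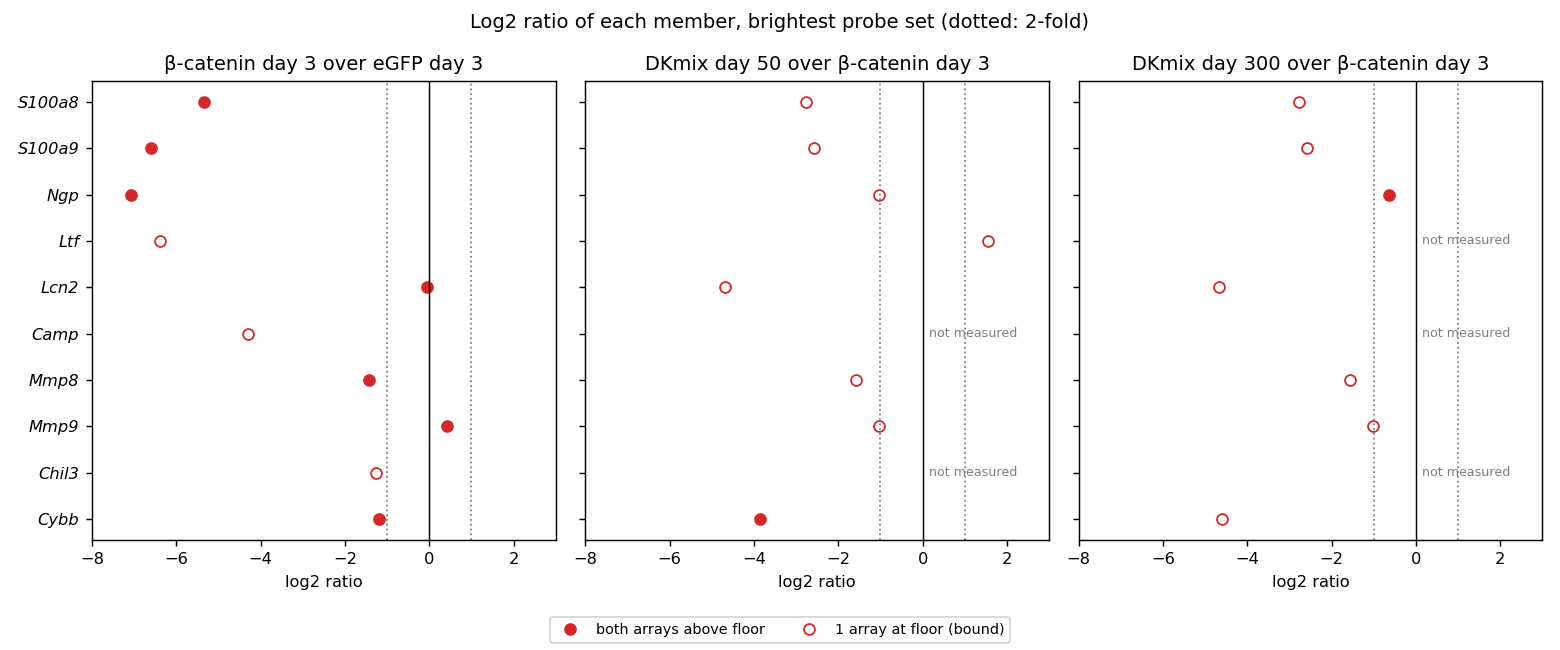
Log2 ratio of each member by its brightest probe set, with β-catenin relative to eGFP at day 3 (left) and in DKmix cells of day 50 (middle) or day 300 (right) relative to the β-catenin day 3 array; filled points have both arrays above the floor, open points are bounds, and dotted lines mark 2-fold. In the first panel the ratios run between -7.08 for Ngp and 0.43 for Mmp9, and in the second Ltf alone lies to the right of 0.

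Over the whole set, 8 of the 10 members were at least 2-fold lower in β-catenin than in eGFP cells at day 3 and 0 were higher, where 9.41% of the 13379 genes measured were lower. The median log2 ratio of the members was -2.86, with 3 of them at a bound, and that of all genes was -0.013. Of the 8 lower members, S100a8, S100a9, Ngp, Ltf and Camp were at least 19.5-fold apart, while Mmp8 (2.68-fold), Cybb (2.27-fold) and Chil3 (at least 2.39-fold) were nearer to the threshold. Mmp8 and Cybb lost their calls on a scale set on the hybridisation controls, at log2 ratios of -0.90 and -0.66, which left 6 members lower. That scale moved the median of all genes to 0.46, with 5.84% lower and 25.3% higher, against 9.41% lower and 10.2% higher on the scale used here. Cybb was also within 2-fold when its 3 probe sets were averaged (-0.76). In bulk RNA, fewer cells of a type and less RNA of a gene per cell cannot be told apart.

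At DKmix day 50, 7 of 8 measured members were lower than on β-catenin day 3 and 1, Ltf, was higher, where 15.7% of 13754 genes were lower and 16.1% higher. The members' median log2 ratio was -2.08 against 0.067 for all genes, and 7 of the 8 values were bounds. At DKmix day 300, 6 of 7 measured members were lower and 0 higher, where 14.4% of 12666 genes were lower and 14% higher, with a median of -2.59 against -0.076 for all genes. Ngp was the measured member that was not past 2-fold there, and it was past 2-fold on the hybridisation control scale (log2 ratio -1.64). On that scale the medians of all genes were -0.82 at day 50, with 42.7% lower and 4.41% higher, and -0.87 at day 300, with 44.2% lower and 4.45% higher. Both comparisons take β-catenin day 3 as the denominator, so their values are not independent.

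Between the DKmix cultures only 3 members could be measured, since the other 7 lay below the floor on both arrays. Ltf was at least 2.93-fold lower at day 300 than at day 50, where 15.9% of 13107 genes were lower and 15% higher. Ngp was at least 1.31-fold higher and Cybb at least 1.67-fold lower at day 300, and neither bound reached 2-fold. Set against eGFP day 3, 9 of 10 members were lower at DKmix day 50 and 9 of 10 at DKmix day 300, where 15% and 15.8% of genes were lower and 15.6% and 15.8% higher. On the hybridisation control scale 9 members were lower in each, with 26.7% of all genes lower and 7.53% higher at day 50 (median -0.40) and 27.2% lower and 9.63% higher at day 300 (median -0.46). The exception in both was Mmp9, at least 1.51-fold lower, for which the eGFP value itself was near the floor. By their brightest probe sets, 7 members lay above the floor with β-catenin at day 3, 2 in DKmix cells of day 50 and 1 in those of day 300, against all 10 with eGFP.

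Counted in either direction, 2-fold differences were met by 8 of 10 members for the day 3 pair, where 19.6% of all genes met them. The like counts were 8 of 8 members for DKmix day 50 and 6 of 7 for day 300 set against β-catenin day 3, where 31.8% and 28.4% of genes met them. They were 1 of 3 between the DKmix cultures (30.9% of genes), 9 of 10 at day 50 (30.5%) and 9 of 10 at day 300 (31.5%) against eGFP. At 4-fold, 5 members passed for the day 3 pair (S100a8, S100a9, Ngp, Ltf and Camp), where 2.83% of genes did. For DKmix cells against β-catenin day 3 it was 4 members at each time (S100a8, S100a9, Lcn2 and Cybb), where 7.28% of genes passed at day 50 and 6.62% at day 300. Between the cultures 0 passed (6.17% of genes), and against eGFP 8 passed at each time, all but Mmp9 and Chil3, where 6.97% and 8.54% of genes did.

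**Figure D3:**
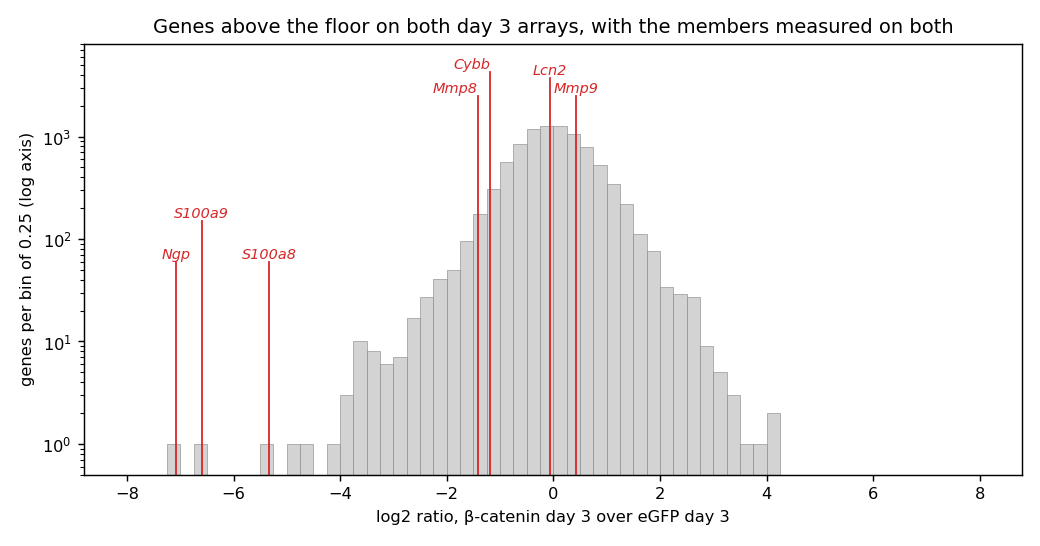
Distribution of log2 ratios, β-catenin day 3 over eGFP day 3, for the 9121 genes above the floor on both arrays (bars, number of genes per bin of 0.25 on a log axis), with lines at the 7 members measured on both. Ngp (-7.08), S100a9 (-6.60) and S100a8 (-5.33) lie at the lower end of the distribution, and Lcn2 and Mmp9 lie near its centre.

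Other genes of neutrophil granules and late neutrophil stages were set beside the members. Of 24 measured, 16 were at least 2-fold lower in β-catenin than in eGFP cells at day 3 and 2 were higher. Their median log2 ratio was -1.45, and by the hybridisation controls 12 were lower and 2 higher. Pglyrp1, a peptidoglycan-binding granule protein, gave 178.2 on β-catenin day 3 against 5056.3 on eGFP day 3 and was 28.4-fold lower. Lyz2, the lysozyme of myeloid cells, was 14.5-fold lower (994.2 against 14389.8), and Wfdc21, a small protease inhibitor-like protein, was 15.4-fold lower (131.0 against 2017.2). Stfa2l1, of the stefin family of cysteine protease inhibitors, was at least 17.6-fold lower. The 2 that were higher were Anxa1 (annexin A1) and Fpr2 (a formyl peptide receptor), at 10.8-fold and 3.01-fold, named after their values were seen. In DKmix cells 11 of 18 measured genes of this list were lower than on β-catenin day 3 and 1 was higher, at day 50 and again at day 300.

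Primary granule genes, which are switched on before the secondary ones, were in part lower as well. Elane, neutrophil elastase, was 11.8-fold lower with β-catenin than with eGFP (264.5 against 3110.6). Prtn3, proteinase 3, was 4.27-fold lower (4253.5 against 18174.9), and Ctsg, cathepsin G, 3.66-fold lower (4449.1 against 16275.2). Of the 6 on the array, 3 were lower at day 3 and 0 higher (median -1.43). At DKmix day 50 and at day 300, 5 of 6 were lower than on β-catenin day 3, Prtn3 by at least 88.1-fold at both and Ctsg by at least 92.1-fold at day 300. Ctsc, the protease that activates these enzymes, is named after its values were seen and was not among the lower ones, with a log2 ratio of 1.15 at day 50 and 0.53 at day 300 relative to β-catenin day 3. On the hybridisation control scale 0 of the 6 were higher at day 50.

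For the partners of Cybb in the NADPH oxidase (the subunits Cyba, Ncf1 and Ncf4, the GTPases Rac1, Rac2 and Rap1a, and the proton channel Hvcn1), the number lower or higher depended on the scale. At day 3, 4 of 7 were at least 2-fold lower with β-catenin than with eGFP and 0 were higher, among them Cyba, the p22phox partner of gp91phox, at 3.30-fold and Hvcn1 at 2.86-fold. Scaled on the hybridisation controls, 1 of the 7 was lower. At DKmix day 50, 4 of 7 were higher than on β-catenin day 3 (Ncf4, Rac1, Rac2 and Rap1a, chosen after their values were seen) and 2 were lower, and at day 300, 2 were higher and 1 lower. On the hybridisation control scale 0 were higher at either time and 3 and 1 were lower, where 42.7% and 44.2% of all genes were lower. Ncf4, the p40phox cytosolic subunit, gave 922.3 on the β-catenin array, 2418.9 in DKmix cells of day 50 and 2438.6 in those of day 300, against 2388.0 on the eGFP array.

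Other members of the S100 family differed among themselves. Of 9 measured at day 3, 2 (S100a5 and S100g, both dim) were lower with β-catenin than with eGFP and 0 were higher. S100a6, a calcium-binding protein of many dividing cells, gave 1015.1 on the β-catenin array, 7484.2 in DKmix cells of day 50 and 9001.6 in those of day 300, against 1924.0 on the eGFP array. It was 7.37-fold higher at day 50 and 8.87-fold higher at day 300 than on β-catenin day 3, while S100a4 was 12.2-fold lower at day 50 and within 2-fold at day 300. Of 6 measured, 3 were higher and 1 lower at day 50, and 4 were higher and 0 lower at day 300. Scaled on the hybridisation controls, 2 of 10 were higher and 2 lower at day 3, 1 of 7 was higher and 1 lower at day 50, and 1 was higher and 2 lower at day 300. Of all genes on that scale, 25.3% were higher and 5.84% lower at day 3. At DKmix day 50 and day 300, 42.7% and 44.2% were lower and 4.41% and 4.45% higher.

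Transcription factors of granulocyte maturation differed in direction at day 3. Cebpb and Cebpd, of the C/EBP family, were 5.25-fold and 4.34-fold lower with β-catenin than with eGFP (719.5 against 3776.1 for Cebpb and 252.2 against 1093.8 for Cebpd). Gfi1, a repressor needed for neutrophil formation, was at least 5.46-fold higher. Cebpa, which acts early in the granulocyte line, gave 587.4 on the β-catenin array, 107.6 in DKmix cells of day 50 and 3.3 in those of day 300, against 385.1 on the eGFP array, at least 12.2-fold lower at day 300 than on β-catenin day 3. Of 8 measured, 2 were lower and 1 higher at day 3, 4 lower and 1 higher at DKmix day 50, and 4 lower and 0 higher at DKmix day 300. Scaled on the hybridisation controls, 5 of 8 were higher at day 3, and 6 and 7 of 8 were lower at DKmix day 50 and day 300. That scale shifts all genes the same way, with 25.3% higher at day 3, and 42.7% and 44.2% lower at DKmix day 50 and day 300. Cebpe, the factor of the secondary granule stage, was on this list of 10 genes, of which 9 were on the array. No value for it is given here.

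Calprotectin receptors, other metalloproteinases and the partners of lipocalin 2 showed mixed values. Of 6 receptor genes at day 3, 3 were lower and 2 higher with β-catenin than with eGFP, and by the hybridisation controls 1 was lower and 2 higher. Ager, a receptor for S100 proteins, was at least 6.23-fold lower, and Bsg (basigin) was 5.23-fold higher. Of 12 other metalloproteinases and their inhibitors, 2 were lower and 3 higher at day 3, while by the hybridisation controls 1 of 15 was lower and 6 were higher. Among all genes, 5.84% were lower and 25.3% higher by those controls. Timp2, an inhibitor, was 13.4-fold lower (139.4 against 1872.1). Of the 4 other chitinase family genes 1 was measured at day 3, Chil1, which is also in the granule list and was at least 6.89-fold lower with β-catenin. Tfrc, the transferrin receptor, was level at day 3 and 5.04-fold lower at DKmix day 50 than on β-catenin day 3, and Slc40a1, the iron exporter, was 2.34-fold lower in β-catenin than in eGFP cells at day 3. It was the 1 lower gene of 5 in the iron and lipocalin list, of which 0 were lower and 1 higher by the hybridisation controls.

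**Figure D4:**
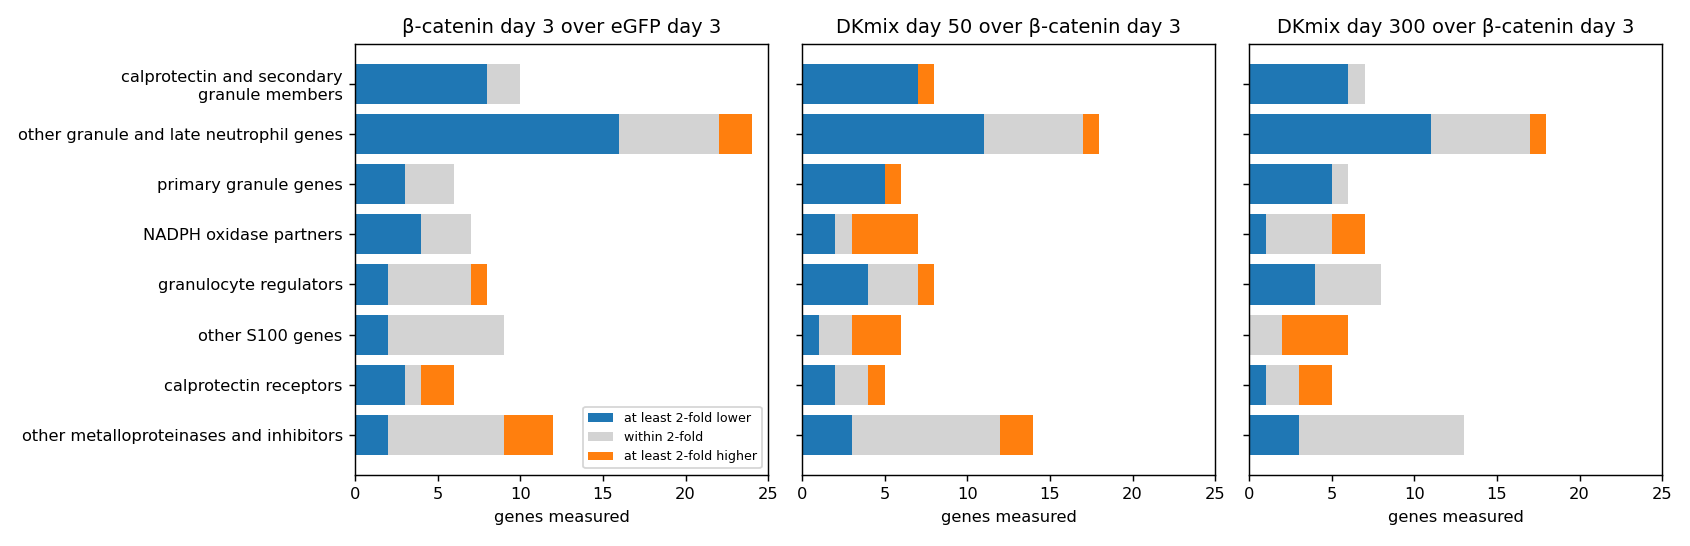
Number of measured genes at least 2-fold lower, within 2-fold and at least 2-fold higher (stacked bars) for the calprotectin and secondary granule members and 7 lists of related genes, with β-catenin relative to eGFP at day 3 (left) and in DKmix cells of day 50 (middle) or day 300 (right) relative to the β-catenin day 3 array. The members' bar is lower for 8 of 10, 7 of 8 and 6 of 7 genes, and the other S100 genes have 2 of 9, 1 of 6 and 0 of 6 lower.

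By profile over the 4 arrays, the genes nearest to the mean of S100a8 and S100a9 were sought among 7516 genes with an intensity of at least 193.2 somewhere. Likeness was the root mean square difference between log2 profiles, each centred on its own mean. Outside the members, the 8 nearest were Pglyrp1 (0.79), Mgst2 (0.83), Lyz2 (0.96), Lpl (1.07), Ccl6 (1.11), Elane (1.11), F10 (1.21) and Mpeg1 (1.21). Ngp, at 0.76, was closer than any of these, while Ltf (1.72), Cybb (1.76), Camp (1.85), Lcn2 (2.14) and Mmp8 (2.33) were farther. Values below the floor were raised to it and the profiles were not scaled to equal range, so the measure also depends on brightness. Camp was above the floor on the eGFP array alone, so its distance does not by itself show another course. Lpl, lipoprotein lipase, gave 824.7 on the β-catenin array, 4.0 in DKmix cells of day 50 and 9.9 in those of day 300, against 6326.2 on the eGFP array. With 4 arrays the measure describes these samples and no correlation is given.

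**Figure D5:**
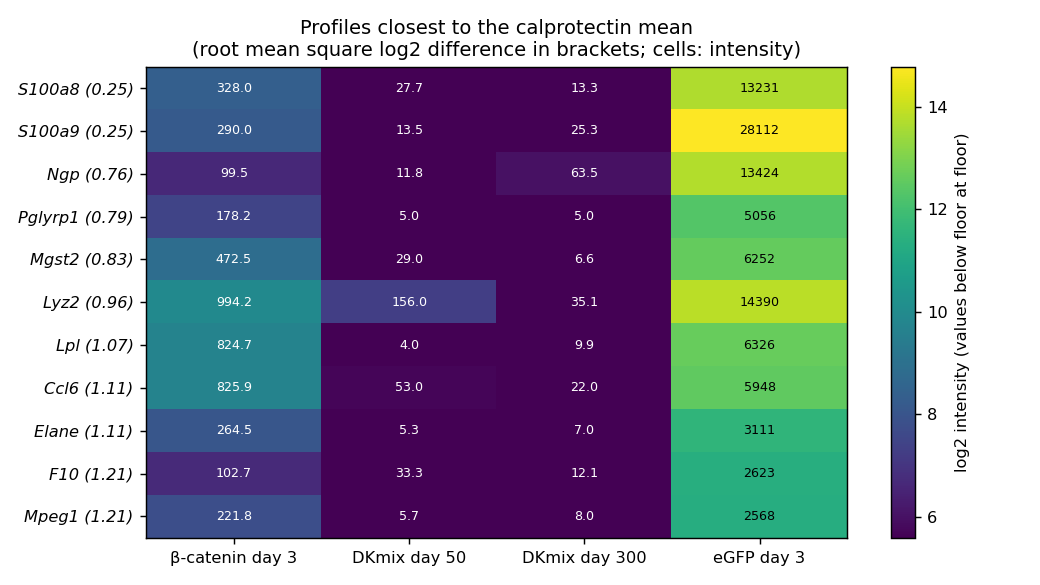
Intensity of S100a8, S100a9, Ngp and the 8 genes with the nearest profile on the β-catenin day 3, DKmix day 50, DKmix day 300 and eGFP day 3 arrays; colour is log2 intensity with values below the floor at the floor, the number in each cell is the intensity, and the number beside each gene is its root mean square log2 difference from the calprotectin mean. All 11 genes are brightest on the eGFP day 3 array. For the 8 nearest genes this follows from choosing them by likeness to S100a8 and S100a9.

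Markers of other myeloid cells moved between the same arrays. The monocyte and macrophage list summed to 3864.4 on the β-catenin array, 2327.6 in DKmix cells of day 50 and 5818.1 in those of day 300, against 15652.3 on the eGFP array. Of its 9 genes measured at day 3, 3 were lower with β-catenin and 2 were higher (median log2 ratio -0.28). Csf1r, the receptor for macrophage colony-stimulating factor, was 5.90-fold lower (1999.5 against 11797.6) and made up most of the eGFP sum. Mpeg1, a perforin of macrophages, was 11.6-fold lower. The 2 higher genes were Ccr2, at least 6.92-fold, and Cd68, 2.875-fold. In DKmix cells 5 of 10 genes of this list were lower and 2 higher at day 50, and 6 of 10 lower and 2 higher at day 300, than on β-catenin day 3 (median log2 ratios -1.01 and -1.81). The higher sum at day 300 holds Cd68, a lysosomal protein of macrophages, with 5406.9 in DKmix cells of day 300 against 469.2 on β-catenin day 3. The dendritic cell list summed to 22734 on the β-catenin array, 339.9 in DKmix cells of day 50 and 557.8 in those of day 300, against 4726.4 on the eGFP array, with 6 of 8 higher and 1 lower at day 3. The mast cell list summed to 3572.5 on the β-catenin array, 152637 in DKmix cells of day 50 and 60529 in those of day 300, against 601.3 on the eGFP array. Of its 7 genes measured at day 3, 5 were higher with β-catenin and 1 lower, or 6 and 1 by the hybridisation controls. Relative to β-catenin day 3, 7 of 8 measured genes were higher and 1 lower at DKmix day 50, and 8 of 8 were higher at day 300. The eosinophil and basophil list summed to 1345.7, 531.1 and 109.4 on β-catenin day 3, DKmix day 50 and DKmix day 300, against 1607.9 on eGFP day 3. At day 3, 2 of 4 were lower with β-catenin, Siglecf (2.58-fold) and Prg2 (2.03-fold), and 0 were higher, while 0 of 4 were lower by the hybridisation controls. Relative to β-catenin day 3, 2 of 3 were lower at each DKmix time, Mcpt8 by 20.2-fold at day 300. Epx, eosinophil peroxidase, named after its values were seen, was below the floor on all 4 arrays. Cd34 of the stem and progenitor list was 7.19-fold higher on the β-catenin than on the eGFP array. Of the 7 measured genes of that list, 3 were higher and 0 lower. By the hybridisation controls 6 of 8 were higher, where 25.3% of all genes were. Klf1 of the erythroid list was 6.05-fold lower on the β-catenin than on the eGFP array, where 2 of 3 were lower, or 1 of 3 by the hybridisation controls. The part of these other cell types in the members' values was not tested.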

How the data were processed

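RNA from 4 mouse samples was labelled with biotin and hybridised to Affymetrix arrays, per the labels' protocols. The values the authors deposited are intensities on a linear scale, and MAS5 is named per the submitters' processing notes. Its version and the genome build are not given in the sources used here.

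Gene symbols came from the platform annotation (34958 probe sets with 1 symbol, 932 with several, 9211 unnamed in the table given), and all 10 members matched a RefSeq gene table by gene ID. Each gene took its probe set of highest mean log2 intensity. The floor, at percentile 50, was applied after scaling to equal means with 2% trimmed at either end. Groups held 1 array each, so 6 pairs of arrays were compared by ratio, with no test. The ratio step was tested on simulated data with Python 3.11.15, numpy 2.4.6, pandas 2.3.3 and statsmodels 0.14.6.

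Alternatives were quantile normalization, lowess centring (fraction 0.3), a scale on 9 hybridisation control probe sets, floors at percentiles 25 and 75, averaging a gene's probe sets, and a 4-fold threshold. Named genes were all members, up to 4 genes of each of 9 related lists and 6 marker lists with the largest day 3 ratios past 2-fold, up to 2 with the largest DKmix ratios, and the 8 nearest profiles. The members, lists and rules were chosen with earlier results of these data known.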

Additional observations from a re-analysis of the deposited data

How the results depend on the processing

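Over 6 comparisons, 276 member ratios were recomputed under 6 alternatives (the 4-fold threshold bears on counts only): none of the called ratios changed sign, and 14 ratios came to the other side of 2-fold. Ratios not measured both here and under the alternative were left out of these counts. With the floor at 134.6 this dropped called ratios of Chil3 against eGFP day 3. It also dropped those of Mmp9 in DKmix cells, and of Ngp at DKmix day 50, against β-catenin day 3. Quantile normalization and lowess centring moved no member ratio by as much as the probe set SD, and moved no median or count of members beyond its limit. With the floor at percentile 25 of all values, the members' median log2 ratio was -4.09 for the day 3 pair, -3.32 at day 50 and -3.34 at day 300 for DKmix cells over β-catenin day 3, -5.65 and -6.73 at those times over eGFP day 3, and 4 members were past 2-fold between the DKmix arrays. With the floor at 134.6 the medians were -3.85 for the day 3 pair (8 members measured), -1.20 for DKmix day 50 and -1.29 for DKmix day 300 over β-catenin day 3, with 4 members past 2-fold at day 50 and 0 between the DKmix arrays, and Mmp8 was within 2-fold at both times (-0.090). On the hybridisation control scale the median for DKmix day 300 over β-catenin day 3 was -3.24. At a 4-fold threshold, 5 members were called for the day 3 pair, 4 for DKmix day 50 over β-catenin day 3 and 0 between the DKmix arrays, where 2.83%, 7.28% and 6.17% of all genes were. A higher or lower floor changes bounds by its own construction; the cause of the other change was not tested. With the mean of all probe sets, Cybb at day 3 (-0.76) and Mmp9 in both DKmix comparisons with β-catenin day 3 (-0.51) were no longer past 2-fold. No paired analysis was possible because each group held 1 array and the result comes from no test. Members below the floor have no measured level, so the bounds in DKmix cells say nothing of how low they were.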
